A study of Homo sapiens with 4 samples.

Results

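Dystroglycan is a receptor at the cell surface that ties the cell to laminin and other proteins of the basement membrane, and it binds them through a sugar chain built on mannose. POMT1 and POMT2 act together in the endoplasmic reticulum as the enzyme that places the first mannose on serine or threonine. POMGNT1 extends O-linked mannose with N-acetylglucosamine in the Golgi, and DAG1 encodes dystroglycan itself. Inherited loss of POMT1, POMT2 or POMGNT1 causes muscular dystrophies that often involve the brain and eye. Exon skipping in POMT1, POMT2, POMGNT1 and DAG1 is described here. The genes were chosen by a measured value, the difference in inclusion of 1 POMT1 exon between the sets of the deposited table, so that difference is a description and carries no test.

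The cells were 293T, a human embryonic kidney line. Of 4 libraries, 2 came from cells labelled as given an antisense oligonucleotide (ASO) to SNORD89, a C/D box small nucleolar RNA, and 2 from cells labelled as given none. The ASO was an MOE gapmer, a modified oligonucleotide that leads to cleavage of the RNA it binds, used at 70 nM. Medium was renewed after 24 hours and cells were harvested for RNA after 48 hours. No control ASO is named, and the cells labelled as given none carry the same transfection text, so whether they met the lipid reagent is not clear. The labels call the libraries biological replicates.

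The table compares a first with a second set of 2 libraries, and neither its header nor the labels say which set had the ASO. Directions are therefore given only as first against second set. Library numbers follow the order within a cell of the table, and values in a run of 4 are in the order first set library 1, first set library 2, second set library 1, second set library 2. In a skipped exon event a middle exon is either joined to its 2 flanking exons or left out between them. The inclusion level is the share of the form that keeps the exon among the 2 forms of that event. It is taken from inclusion and skipping reads each divided by the length of their form. An exon can thus have different levels in events with different flanking exons.

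Of 65601 events, 54503 averaged at least 20 junction reads over the 4 libraries and are called tested events. The 4 genes held 73 events, of which 53 were tested, on 37 of 38 exons: 16 in POMT1, 16 in POMT2, 13 in POMGNT1 and 8 in DAG1. The tested event nearest the minimum was a DAG1 event with a mean of 25.25 reads, and the nearest one below it was a POMGNT1 event with 19.5. Summed over events, libraries had 38613055 to 43929373 junction reads, where reads on a junction that several events share count once per event. The median tested event had 222, 199, 157 and 171 reads. Library 2 of the second set stood apart, with no reads on 3280 events where the others had none on 513 to 624. Where a difference rests on it, the value without it is given. Of 6 genes listed as markers of 293T cells 4 had an event. VIM had 3859 to 5561 reads, IGF2BP1 479 to 1605, PAX2 52 to 89 and KRT8 23 to 50, while KRT18 and LIN28B had no event. Of 12 markers of blood, liver, muscle and fibroblasts none had one. A gene without a skipped exon event has no value here, so a missing event does not show that the gene was not expressed.

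The POMT1 exons that the results turn on are shown first. The letters are from GENCODE release 29 transcripts, matched to the table by the spacing of exons within each gene, and positions are those of the table, in hg19. In POMT1 (ENSG00000130714.11, plus strand), exon 2 at chr9:134379576-134379727 holds the usual start codon. Exon 3 at chr9:134381501-134381607 holds the start codon of an annotated transcript that lacks exon 2. Only the coding part of exon 2, from 134379606, is printed, and capitals mark the 2 start codons.
POMT1 exon 2, coding part: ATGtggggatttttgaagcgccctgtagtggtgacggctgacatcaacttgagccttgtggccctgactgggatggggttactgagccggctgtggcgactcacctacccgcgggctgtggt
POMT1 exon 3: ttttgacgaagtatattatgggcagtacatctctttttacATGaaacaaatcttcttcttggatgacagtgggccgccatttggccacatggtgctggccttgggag

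An event was called where the false discovery rate (FDR) in the authors' deposited table was under 0.05 and the absolute difference at least 0.1. This held for 2 of the 53 events, against 2.71% of all tested events. The POMT1 event was higher in the first set, as were 1.34% of all tested events, and the POMGNT1 event lower, as were 1.37%. An FDR under 0.05 at any size was given for 5 of 53, against 5.72% of all. The POMT1 exon was the reason for the choice, so nothing is read from these counts.

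Most exons of the 4 genes were near full inclusion: 30 of 53 events had a mean level above 0.95, 17 lay between 0.05 and 0.95, and 6, of which 5 were in DAG1, lay below 0.05. The 2 sets did not overlap in 20 of 53 events, against 22.8% of all tested events. Among the 17 of intermediate level, 7 did not overlap, against 33.2% of such events in the table. The median absolute difference was 0.0157 in these genes and 0.0114 over all tested events. Of the 53 events 19 were higher and 34 lower in the first set, but many share junctions and are not separate observations.

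**Figure D1:**
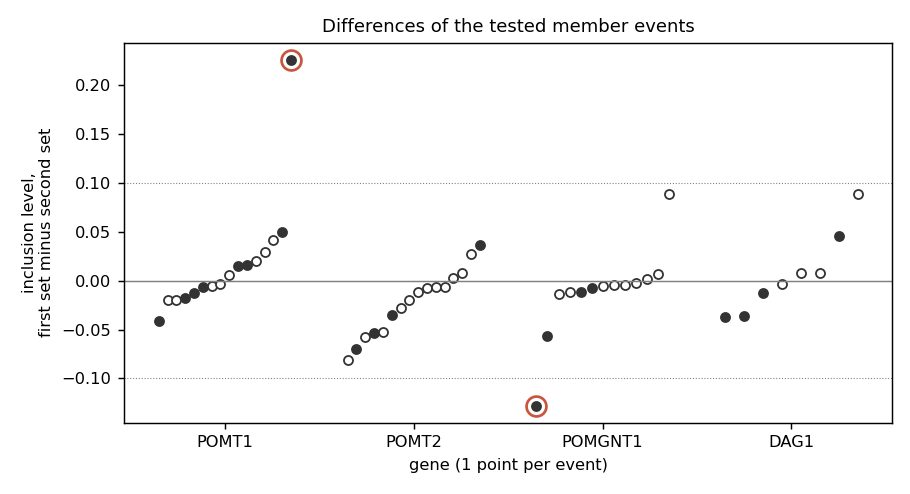
Difference in inclusion level, first set minus second set, for the 53 tested events of the 4 genes, 1 point per event; filled points are events whose sets do not overlap, open points those that overlap, red rings mark called events and dotted lines lie at a difference of 0.1 either way. The POMT1 exon 2 event at 0.226 and the POMGNT1 exon 4 event at -0.128 lie outside the dotted lines.

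In POMT1 the exon that differed was exon 2, the first coding exon of the enzyme, with 122 coding bases of 152. In its event with most reads, flanked by a shorter exon 1 and by exon 3, the first set had inclusion levels of 0.568 (0.505 to 0.629) and 0.597 (0.528 to 0.664), with 95% Wilson intervals in parentheses. The second set had 0.453 (0.386 to 0.523) and 0.261 (0.219 to 0.307). Both libraries of the second set were lower, and they lay further from each other than the libraries of the first set did. The difference that led to the choice was 0.226, with FDR 0.00916 by the authors' deposited table. Without library 2 of the second set it was 0.130, smaller by more than 1.5 times.

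Whether the libraries of 1 set differ beyond counting error was tested with a two-sided Fisher's exact test, adjusted by Benjamini-Hochberg over 106 tests (53 events in both sets). For POMT1 exon 2 the libraries of the second set differed by 0.192 (exact test, adjusted p = 0.000224), near the 0.226 between the sets. Of the 106 tests 5 passed, 2 in the first set and 3 in the second. The 2 in the first set are DAG1 events with the same reads, so they are 1 observation. Such a test compares 2 libraries, not conditions, and these tests and intervals cover counting error only.

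**Figure D2:**
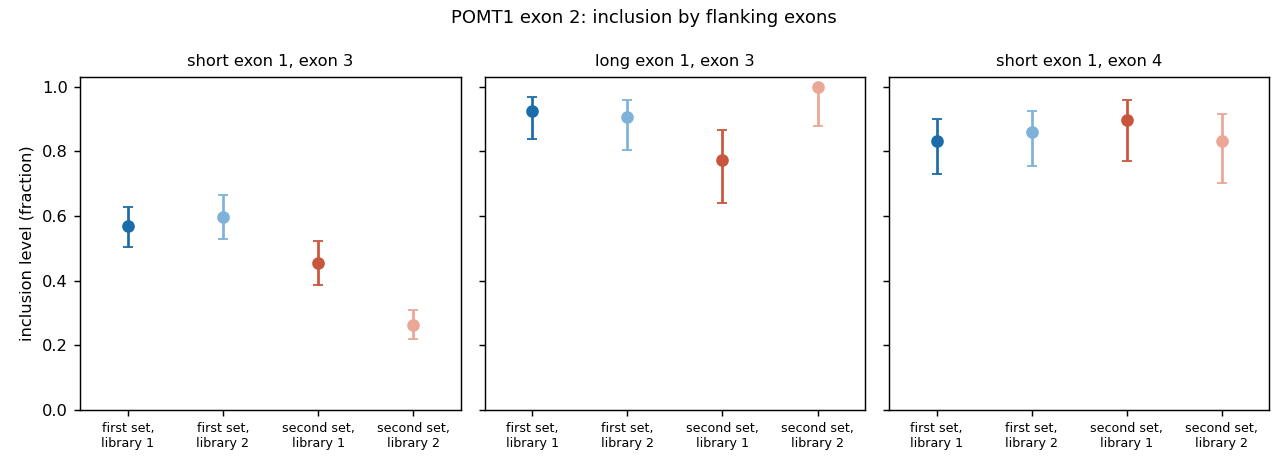
Inclusion level of POMT1 exon 2 (fraction) in each library for the 3 events on this exon, named by their flanking exons; points are levels and bars are 95% Wilson intervals of the reads. In the first panel both libraries of the second set lie lower, with library 2 at 0.261, and in the other panels the sets overlap.

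In both further events on exon 2 the sets overlapped. With a longer exon 1, ending at 134378700 instead of 134378460, the levels were 0.925, 0.907, 0.773 and 1. With exon 4 as the downstream exon, so that the skipped form lacks exons 2 and 3, they were 0.832, 0.861, 0.899 and 0.833, and the difference was -0.0196. These events share reads with the first. Of the 123, 98, 68 and 55 inclusion reads of the event with the longer exon 1, 103, 89, 63 and 50 were on the junction of exons 2 and 3 that both events use. Only 20, 9, 5 and 5 reads joined the longer exon 1 to exon 2, and 5, 5, 10 and 0 joined it to exon 3. The count of 0, among 55 reads of the event, allows a share of skipping reads of up to 5.45%.

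Because neighbouring events share junctions, the reads of each POMT1 junction were worked out by subtracting deposited counts from each other, a step chosen after the data were seen. Exon 1 was joined to exon 2 by 113, 98, 68 and 75 reads. Exon 2 was joined to exon 3 by 103, 89, 63 and 50 reads. Reads that skip exon 2 numbered 82, 63, 79 and 177. Library 2 of the second set thus had the most skipping reads, while its reads into exon 2 were near those of the other library of its set. The next junction, from exon 3 to exon 4, had 109, 103, 87 and 89 reads. A junction of exons 2 and 4, worked out in the same way as a check, came to -4, 1, 3 and -5 reads, which shows the error of the subtraction.

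The levels were also taken from each side of the exon. They reuse the reads of the event for which the exon was chosen, so they describe that difference and add no support to it. With only the reads from exon 1 into exon 2 the inclusion level was 0.579, 0.609, 0.463 and 0.298. With only the reads from exon 2 into exon 3 it was 0.557, 0.586, 0.444 and 0.22.

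**Figure D3:**
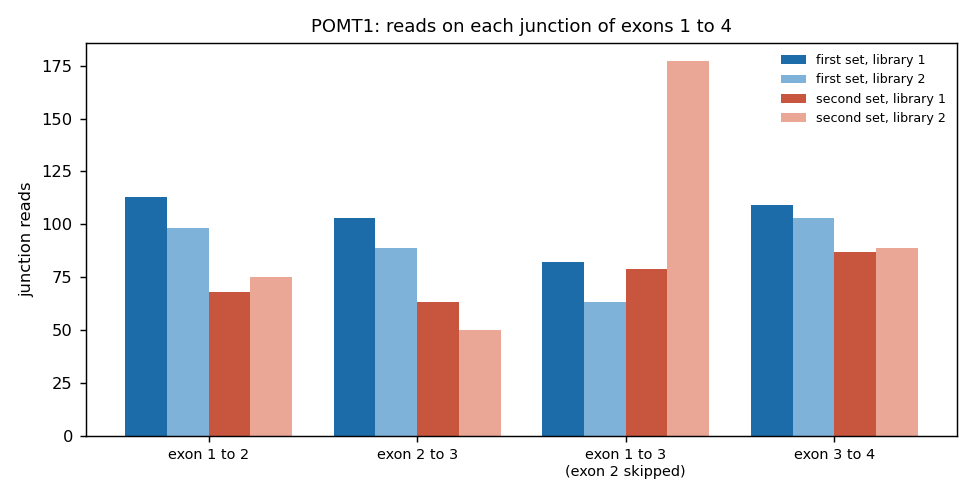
Junction reads (counts) of POMT1 exons 1 to 4 in each of the 4 libraries, with the shorter exon 1, given by or worked out from the deposited counts. Skipping reads from exon 1 to exon 3 reach 177 in library 2 of the second set and lie between 63 and 82 in the others.

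By annotation POMT1 transcripts with and without exon 2 can differ at the start of the protein. Of 11 coding POMT1 transcripts in release 29, 5 hold exon 2. The coding length is 2175 nt in the reference transcript with exon 2 and 2013 nt in the transcript that starts in exon 3. The 162 nt between them are the 122 coding bases of exon 2 and the 40 bases of exon 3 before the second start codon, and they equal 54 codons. Which form is translated was not measured.

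The most deeply read event of the 4 genes was POMT1 exon 17, a coding exon at chr9:134395467-134395580. Its 114 nt are divisible by 3, so its loss keeps the reading frame.
POMT1 exon 17: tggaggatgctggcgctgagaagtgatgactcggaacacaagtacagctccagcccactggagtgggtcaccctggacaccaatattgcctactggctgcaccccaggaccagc

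The levels of exon 17 in the first set were 0.938 (0.908 to 0.959) and 0.915 (0.884 to 0.938), from 584 and 659 reads. Those of the second set were 0.89 (0.858 to 0.915) and 0.863 (0.829 to 0.891), from 747 and 726. The first set was higher by 0.0503 with no overlap, under the size needed for a call (FDR 0.0482 by the authors' deposited table).

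POMT1 exon 3, between the shorter exon 1 and exon 4, was at 0.91, 0.924, 0.96 and 0.957, lower in the first set with no overlap. Its 11, 8, 4 and 7 skipping reads are those of the exon 2 event with exon 4, and its inclusion reads hold the exon 1 to exon 3 reads described above. The difference was -0.0417 (FDR 0.329 by the authors' deposited table). The other 11 POMT1 events, on exons 3, 5, 6, 7, 8 and 12 and on variant forms of exons 5 and 8, had mean levels above 0.95. Single libraries of these lay between 0.912 and 1, with at most 9 skipping reads, and their differences ran from -0.0201 to 0.0414.

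POMT2 (ENSG00000009830.7, minus strand) is the partner of POMT1 in the mannosyltransferase, and none of its 16 tested events was called. Its largest difference was in an event on exon 8 at chr14:77765032-77765114, with levels of 0.77, 0.933, 0.889 and 0.976. The flanking exons of this event are exon 9 and a form of exon 4. Its skipped form, with 14, 4, 4 and 1 reads, therefore lacks exons 5 to 8 together. Its included form joins exon 8 directly to exon 4 and lacks exons 5 to 7. Of its 73, 87, 50 and 64 inclusion reads only 0, 5, 2 and 0 were on that junction, and the rest joined exons 9 and 8. The level is thus not that of exon 8 between exons 9 and 7. Library 1 of the first set was the low one and the sets overlapped, with a difference of -0.0811 (FDR 0.257 by the authors' deposited table). Without that library the difference was 0.000453, and without library 2 of the first set it was -0.163. Without library 1 or library 2 of the second set it was -0.125 or -0.0376. Exon 2, at chr14:77778292-77778376, was at 0.913, 0.848, 0.974 and 0.928. The first set was lower there by 0.0703 with no overlap, and the FDR was 0.0888 by the authors' deposited table. Without library 2 of the first set the difference was -0.0376.

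An event that sets POMT2 exon 5 against a direct joining of exons 7 and 4 had levels of 0.863, 0.949, 0.916 and 1, and the like event for exon 6 had 0.841, 0.924, 0.881 and 1. Both use the same skipping reads, 9, 3, 4 and 0, so they are 1 observation, and their sets overlapped. A coding cassette exon of 50 nt at chr14:77745880-77745929, found in 1 coding transcript, was the minor coding form with most reads.
POMT2 50-nt exon: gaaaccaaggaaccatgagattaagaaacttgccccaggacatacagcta

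This exon was included at 0.0952, 0.103, 0.0862 and 0.124, and the sets overlapped. A 39-nt exon at chr14:77753576-77753614, in no coding transcript, was at 0.0153, 0.0391, 0.0389 and 0.0384. The other 10 POMT2 events had mean levels above 0.95, with single libraries from 0.913 to 1. Among them was the POMT2 event with most reads, on exon 17 at chr14:77746364-77746423, at 1, 0.973, 0.985 and 1.

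POMGNT1 (ENSG00000085998.9, minus strand of chromosome 1) holds the other called event, a 71-nt form of exon 4, in which the first set had levels of 0.863 (0.773 to 0.921) and 0.757 (0.659 to 0.834). The second set had 0.934 (0.825 to 0.977) and 0.941 (0.859 to 0.977). Both libraries of the first set were lower, and the difference was -0.128 (FDR 0.0204 by the authors' deposited table). Without library 2 of the first set it was -0.0750, under the size needed for a call. The level rests on few skipping reads, 11, 20, 3 and 4.

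The usual 119-nt form has those same skipping reads and 323, 294, 199 and 260 inclusion reads. Its levels were 0.942, 0.891, 0.974 and 0.973, lower in the first set by 0.0567 with no overlap, and too small a difference for a call (FDR 0.0210 by the authors' deposited table). Without library 2 of the first set the difference was -0.0311. Both forms share the junction at the other end of the exon, so the level of the 71-nt event counts transcripts of either form and does not give the use of the shorter one. The 119 nt are not divisible by 3, so loss of the exon shifts the reading frame.

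POMGNT1 exon 8, at chr1:46660225-46660323, is a coding exon of 99 nt, and its loss keeps the frame.
POMGNT1 exon 8: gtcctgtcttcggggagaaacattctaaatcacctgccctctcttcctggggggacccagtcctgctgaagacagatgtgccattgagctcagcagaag

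In the first set exon 8 was at 0.938 (0.895 to 0.964) and 0.944 (0.905 to 0.967). In the second it was at 0.946 (0.904 to 0.97) and 0.757 (0.696 to 0.809), so that 1 library alone was low. Library 2 of the second set had 48 skipping reads where the others had 10 to 12. It differed from library 1 of its set by 0.189 (Fisher's exact test, adjusted p = 5.93e-06). The difference between the sets was 0.0890 with that library, -0.00559 without it and 0.184 without library 1 of the second set (FDR 0.0608 by the authors' deposited table).

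**Figure D4:**
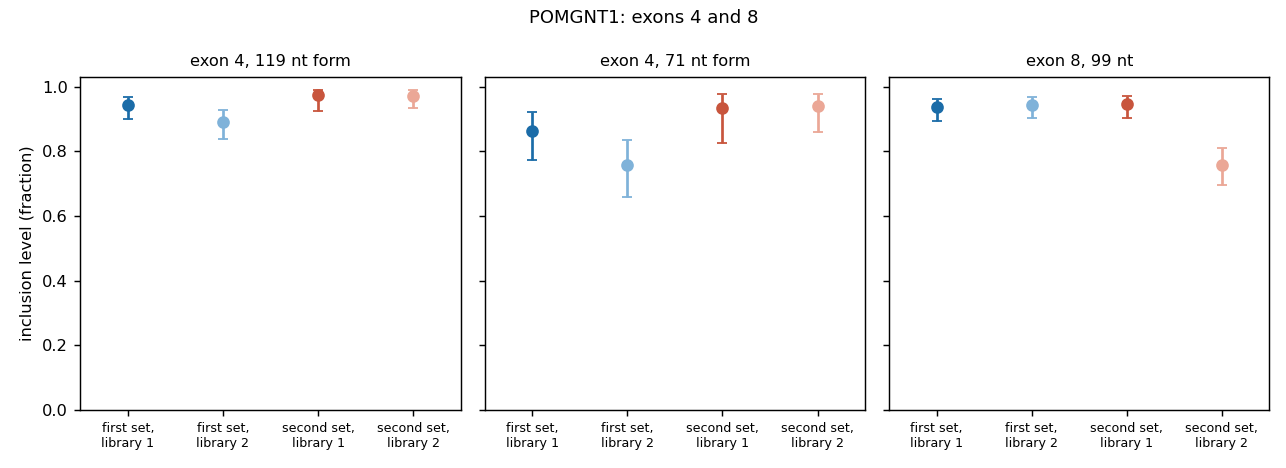
Inclusion level (fraction) of POMGNT1 exon 4 in its 119-nt and 71-nt forms and of exon 8, in each library; points are levels and bars are 95% Wilson intervals of the reads. For exon 4 both libraries of the first set lie below the second set, and for exon 8 library 2 of the second set, at 0.757, lies below the rest.

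A POMGNT1 exon of 116 nt at chr1:46654914-46655029, coding in 1 annotated transcript, was at 0.862, 0.924, 0.83 and 0.952. The sets overlapped, with a difference of 0.00157, while the libraries of the second set differed by -0.122 (Fisher's exact test, adjusted p = 0.0209). The other 9 POMGNT1 events lay between 0.962 and 1 in every library. Among them was the POMGNT1 event with most reads, on exon 6 at chr1:46661483-46661596, at 0.995, 1, 1 and 1.

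In DAG1 (ENSG00000173402.7, plus strand) every event lies before the start codon, at chr3 position 49547968. None of the 7 exons with an event is coding in release 29. In 7 of the 8 tested events the skipped form is the direct junction of the first exon and the start-codon exon, so they share its reads: 276, 182, 54 and 117. The sets did not overlap in this count. Divided by the reads of the median tested event in the library it was 1.24, 0.915, 0.344 and 0.684. No test was made of this level, and in bulk RNA fewer expressing cells and less RNA per cell cannot be told apart.

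No tested DAG1 event was called. Against the direct junction, no untranslated exon exceeded a level of 0.0972 in any library. The 57-nt exon at chr3:49514282-49514338 was at 0.045, 0.0969, 0.0857 and 0.0637, and the sets overlapped. Its 52-nt form, ending at 49514333, was at 0.0558, 0.0576, 0.0877 and 0.0972, lower in the first set with no overlap (FDR 0.502 by the authors' deposited table). The 85-nt exon at chr3:49508398-49508482 was at 0.0226, 0.0172, 0.023 and 0.0417 against the direct junction. Against the 57-nt exon it was at 0.34, 0.175, 0.0959 and 0.241, from 7 to 38 reads.

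The 120-nt DAG1 exon at chr3:49526059-49526178 is named because of its values. It was at 0.0441, 0.0681, 0.0201 and 0, from 23, 24, 2 and 0 inclusion reads. The 0 among 117 reads in library 2 of the second set allows a share of inclusion reads of up to 2.56%. The first set was higher by 0.0460 with no overlap, too small for a call (FDR 0.000945 by the authors' deposited table). The 162-nt exon at chr3:49524687-49524848 lay the other way, at 0.00361, 0.00274, 0.069 and 0.0127, from 2, 1, 8 and 3 inclusion reads (FDR 0.166 by the authors' deposited table). All of these reads joined the first exon to the 162-nt exon. By subtraction of deposited counts, 0, 0, 0 and 0 reads joined it to the start-codon exon, so its inclusion between these 2 exons is not shown. The exon at chr3:49530256-49530406 had 0, 9, 1 and 0 inclusion reads, and the libraries of the first set differed (Fisher's exact test, adjusted p = 0.00757). A form of it that starts at 49530260 has the same reads.

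**Figure D5:**
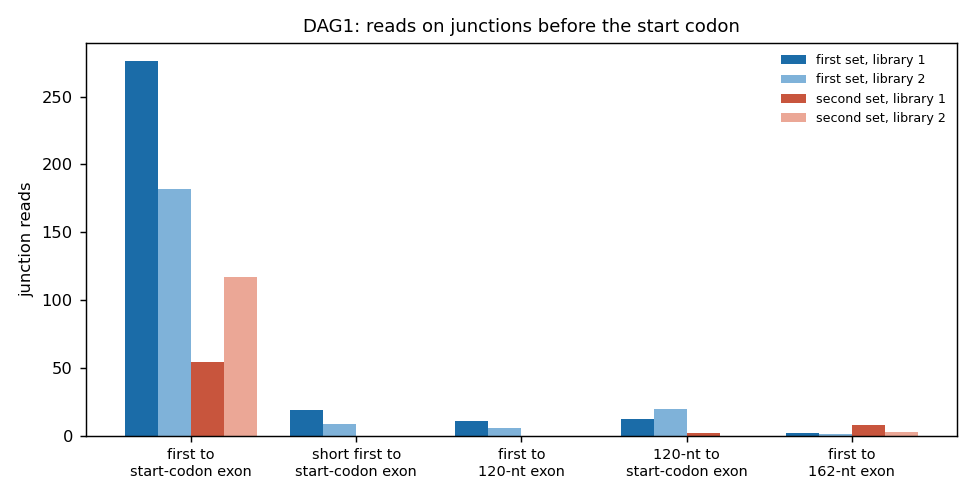
Junction reads (counts) of DAG1 before the start codon in each of the 4 libraries, as given by the deposited counts. The direct junction has 276, 182, 54 and 117 reads, and every other junction shown has at most 20.

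Below the minimum of 20 reads lay 20 events, 13 of them in DAG1. Of those 13, 5 had an FDR under 0.05 and an absolute difference of at least 0.1 in the authors' deposited table. The share of all events below the minimum that met both thresholds was not worked out, so nothing is read from this count. In 4 of the 5 the skipped form had 0 reads in both libraries of the second set. These reads were on the junction of the first exon with the 120-nt exon, with 11, 6, 0 and 0 reads, or of a shorter first exon with the start-codon exon, with 19, 9, 0 and 0. DAG1 also had fewer reads in the second set on the direct junction, and the part of this in these events was not tested. The 7 events of POMT1, POMT2 and POMGNT1 below the minimum did not meet both thresholds.

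Against the spread between libraries, differences were tested with a quasi-binomial model with Benjamini-Hochberg adjustment over all tested events. In the form used here that spread, the dispersion, is common to all events. The scatter of an event's own libraries does not enter its p, which can be too small where that scatter is wide. The 3 events on POMT1 exon 2 are left out because that exon was chosen for its difference. Of the other 50 events, 0 had an adjusted quasi-binomial p under 0.05, and the smallest was 0.849. An unadjusted p under 0.05 was found for 3 of the 50, namely POMGNT1 exon 8 and the 120-nt and 162-nt exons of DAG1. Over all 54503 tested events it was found for 2027, so nothing is read from these 3. After adjustment 3 of all tested events passed (0.00550%). The model as first designed, with its dispersion moderated over all tested events, gave 0 and recovered 0 of 200 changes in simulated reads. The form used here was adopted after that failure and with the results of these data in view. It recovered 62 of 200 changes of 0.3 in inclusion level in reads simulated with its common dispersion. Those reads have the spread that the model assumes, so the rate does not cover events whose scatter differs from it. In neither form did any of these 50 events have an adjusted p under 0.05.

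The 3 genes with a pattern most like that of POMT1 exon 2 were RBM27, C9orf3 and ASCC2. Likeness was the root mean square difference in inclusion level over the 4 libraries, among 30446 exons with a mean of at least 100 reads. The RBM27 exon at chr5:145631274-145631438 lay 0.0379 from POMT1, with levels of 0.607, 0.623, 0.492 and 0.215. The C9orf3 exon at chr9:97844857-97845001 lay 0.0399 away, with 0.578, 0.521, 0.471 and 0.254. The ASCC2 exon at chr22:30230478-30230539 lay 0.0620 away, with 0.49, 0.514, 0.438 and 0.306. These exons were picked for their likeness, so shared features of the 4 levels follow from the choice.

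Other genes of the pathway were taken from lists of 52 genes, of which 38 had a tested event. Of their 270 events 7 were called, 2.59% against 2.71% of all tested events, 3 higher and 4 lower in the first set. Among 13 genes that supply mannose and its donors, 1 of 116 events was called. It lies in PMM1, a phosphomannomutase, and was at 0, 0.248, 0 and 0, from 13 to 26 reads, so that without library 2 of the first set the difference was 0. Of 11 genes that build the rest of the sugar chain, 8 had 43 tested events, and 4 were called.

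Values are given for 3 of these. In B3GALNT2, which adds N-acetylgalactosamine, an exon was at 0.198, 0.277, 0.224 and 0.0204. Only 1 library was low there, library 2 of the second set, and the sets overlapped. The difference was 0.115 with it and 0.0132 without it, and it was 0.0755 without library 2 of the first set. GYLTL1B, an older symbol of LARGE2, which builds the laminin-binding repeat, had an exon at 0.959, 0.829, 1 and 1, with a difference of -0.106 that was -0.0409 without library 2 of the first set. In MGAT5B, which branches O-mannose glycans, an exon was at 0.588, 1, 1 and 1, from 8 to 45 reads, and without library 1 of the first set the difference was 0.

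The TMTC proteins are a separate family of O-mannosyltransferases that act on cadherins, and 1 of their 11 events was called. This TMTC4 exon was at 0.459, 0.333, 0.655 and 0.867, from 20 to 28 reads. Among 24 ligands and membrane partners of dystroglycan, 1 of 100 events was called. It lies in LAMA5, a laminin chain, and was at 0.011, 0.0633, 0.3 and 0.211, from 13 to 46 reads. The sets did not overlap in the events of GYLTL1B, TMTC4 and LAMA5.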

How the data were processed

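The data are 1 table of skipped exon events in the layout of rMATS, from poly(A) RNA-seq of 4 libraries. Cutadapt, STAR and hg19 are named in the submitters' processing notes; versions, settings and annotation are not given in the sources used here. The deposited table holds junction read counts, inclusion levels as a fraction, the difference between sets as a score from -1 to 1 and, per the file headers, a p-value and FDR per event.

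Inclusion levels were recomputed from the deposited counts (largest deviation 0.0005), and Wilson intervals of the read share were put on that scale. Quasi-binomial p-values set a difference against a spread between libraries that is common to all events, not against the spread of the event itself. Fisher's exact p-values cover the counting error of 2 libraries.

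The quasi-binomial test departs from its written design, which moderated the dispersion over all tested events with limma 3.58.1. That version recovered 0 of 200 changes of 0.3 in simulated reads over 54503 events. The prior was therefore estimated on 22208 events with at least 10 reads of the rarer form, which gave 1 common dispersion of 3.52. This recovered 150 of 200 with binomial noise and 62 with reads simulated at that common dispersion, which is the spread that the model assumes. A prior following depth recovered 144 and 58 and was not adopted. The choice was made while the counts of calls in the real data were also visible.

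Members and gene lists were chosen with earlier results of these data known. Values in every library are given for exons with a mean level of 0.05 to 0.95, represented by their event with most reads, and for the event with most reads of each gene; other events are named after their values were seen. Some items are not reported here.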

Additional observations from a re-analysis of the deposited data

How the results depend on the processing

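No paired analysis was possible because the columns carry no replicate numbers. The 2 called events of the 4 genes became 7 with no read minimum, 4 at a difference of at least 0.05, 1 at a difference of at least 0.2 and 1 at an FDR under 0.01; between 1 and 2 kept their size and direction without 1 library. Over all tested events the 1477 calls became 719 at a mean of at least 50 reads, 2499 at a difference of at least 0.05, 525 at a difference of at least 0.2 and 748 at an FDR under 0.01; between 1002 and 1418 kept their size and direction without 1 library.

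The POMT1 exon 2 difference ranged from 0.130 to 0.322 without 1 library. It was 0.0297 for the event with the longer exon 1, and the cause was not tested. With exon 4 downstream it reversed to -0.0196. The skipped form of that event lacks exons 2 and 3 together, and reads joining exon 1 to exon 3 are not counted in it. It is thus a measure of joint skipping and not of exon 2 alone. The quasi-binomial count of 3 became 0 with the prior from all tested events, the design as written, and 1 with a prior following depth. Without 1 library it ranged from 0 to 841, with 841 when library 1 of the second set was left out, and the cause was not tested. In that fit POMGNT1 exon 8 had an adjusted p of 0.00711; in the other fits none of the 50 events had one under 0.05. The prior used for the count of 3, the prior following depth and the fits without a library were all chosen after seeing the data, and a lone library is assumed to vary like the rest. For 14 other exons, 64 recomputed differences moved by less than the spread between libraries and 6 by more. Without division by form length the difference of POMT1 exon 17 was 0.0311, that of POMT1 exon 3 -0.0256, that of the 119-nt POMGNT1 exon 4 -0.0333 and that of the 120-nt DAG1 exon 0.0789, each a move of over 1.5 times. The chi-square alternative for libraries within a set gives a ratio to binomial sampling and no count of calls; its median was 1.56. Depth limits DAG1 most, with 13 of its 21 events below the minimum.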
